A study of Mus musculus with 2 samples.

Results

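The genes described here load amino acids onto transfer RNAs or supply cells with amino acids, and many of them are controlled by the transcription factor ATF4. They were fixed as a list of 37 gene symbols and comprise 20 tRNA synthetase genes, 7 amino acid and one-carbon synthesis enzymes, 6 amino acid transporters and 4 ATF4 factors and targets. All 37 symbols were found among the 30175 gene names of the array, with 48 probes, and 35 were measurable. Transcripts were measured in regulatory T (Treg) cells, the CD4 T cells that restrain immune responses, sorted from mice 5 weeks old. One library was labelled Nr4a-deficient and came from Nr4a-TKO mice, and 1 library was labelled wild-type. The Nr4a genes code for nuclear receptors that T cell receptor signals induce. The sort markers, the tissue, the mouse strain, the number of animals and the way the Nr4a genes were deleted are not given in the sources used here, nor is any allele shared by both groups.

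Aminoacyl-tRNA synthetases attach each amino acid to its own tRNA, and the cytosol and the mitochondria use largely separate sets of these enzymes. When uncharged tRNA accumulates or the endoplasmic reticulum is stressed, kinases phosphorylate the initiation factor eIF2 alpha, which slows translation in general but favours translation of ATF4. ATF4 in turn activates genes for amino acid synthesis, amino acid import and tRNA charging. In T cells, activation is known to raise amino acid import and serine and one-carbon metabolism.

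Each library was hybridised to 1 single-colour array, so there was no replicate and no test between genotypes, and every value describes these 2 libraries. The signal of each probe is given relative to the 75th percentile of all gene probes on its array (an intensity of 1757 for the library labelled Nr4a-deficient and of 2042 for wild-type), and differences are on the log2 scale as labelled Nr4a-deficient minus wild-type. Among probes printed in 10 spots, the SD of a difference between single spots was 0.074 for probes with a mean at or over that percentile, 0.121 for probes down to -3 on the scaled log2 axis and 0.315 below that. This spot noise does not cover how animals, sorts or RNA preparations vary. The Nr4a1 probe was 1.82-fold and the 2 Nr4a2 probes 1.97-fold and 1.60-fold brighter in the library labelled Nr4a-deficient, which is not the direction that a loss of these transcripts would give, and the Nr4a3 probe was at background level on both arrays. The deleted parts are not given, and a probe outside them checks nothing, so the genotype rests on the label alone. All 9 Treg markers were detected, with a summed relative signal of 161 in the library labelled Nr4a-deficient, against 194 in wild-type. Of these, 2 were at least 2-fold lower, Ikzf4 (-2.68) and Il2ra (-1.27), and Tnfrsf18 lay at -0.86, while Cd4, Cd3e, Cd3g, Ctla4 and Ikzf2 lay between -0.18 and 0.19. Foxp3 was barely over background, with an intensity of 74.5 in the library labelled Nr4a-deficient, against 85.4 in wild-type. The 8 spike-in RNAs above background lay 0.372 ± 0.058 (SD, n = 8) above 0 after scaling, so spike-ins as the scale put every difference 0.372 lower.

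Markers of other cells also differed between the libraries. Of 8 B cell markers, 6 were detected and all of these lay above 0, with a summed relative signal of 13.9 in the library labelled Nr4a-deficient, against 7.39 in wild-type. The sum of 8 plasmacytoid dendritic cell markers was 119 in the library labelled Nr4a-deficient, against 85.0 in wild-type, with 6 of the 8 at least 2-fold higher. That sum rests mostly on Siglech (77.9 in the library labelled Nr4a-deficient, against 72.4 in wild-type). All 8 lay above 0, and Cox6a2, Upb1 and Cd209d were 114-fold, 49.9-fold and 32.1-fold higher. The wild-type intensities of Cox6a2 (83.8) and Upb1 (110.9) were near 73.8, the lowest signal well above background on that array. The size of their folds is therefore uncertain. The sum of erythroid and platelet markers was 12.6 in the library labelled Nr4a-deficient, against 45.4 in wild-type, with 5 of the 6 detected at least 2-fold lower. NK and CD8 T cell markers summed to 15.6 in the library labelled Nr4a-deficient, against 7.68 in wild-type (7 of 8 detected), and plasma cell markers to 17.2, against 15.2 in wild-type (7 of 8 detected). The plasma cell sum rests mostly on Xbp1 (11.9 in the library labelled Nr4a-deficient, against 10.1 in wild-type), an unfolded protein response gene as well, while Mzb1 and Jchain were 6.55-fold and 3.71-fold higher and Derl3 2.91-fold lower. Proliferation genes were lower by less, with 9 of 10 below 0 and a median of -0.29. The defining genes Pax5 and Blk of B cells, Sdc1 of plasma cells, Ncr1 of NK cells and Pf4 of platelets were not well above background on either array. The part of these cells in the differences below was not tested, and in bulk RNA fewer cells of a type and less RNA per cell cannot be told apart.

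On the main scale, set by the 75th percentile of each array, the amino acid genes were close to equal in the 2 libraries. None of the 35 measured genes differed by 2-fold in either direction on that scale. Among all 18556 genes with a measured value or a bound, 874 (4.71%) passed 2-fold upward in the library labelled Nr4a-deficient and 915 (4.93%) passed it downward, together 9.64%. With spike-ins as the scale that split became 561 higher and 1510 lower. There, 1 of the 35 amino acid genes lay above 0, and Asns and Trib3 were at least 2-fold lower. Their median was then -0.41, against -0.37 for all genes. Most of the amino acid genes had bright probes. On the main scale, the share past 2-fold was 2.34% among the 8388 genes at or over the 75th percentile. A count of 0 among the 26 amino acid genes in that range therefore does not set them apart. Of the 35 genes, 29 (82.9%) lay within 0.25 of 0, against 63.4% of the genes measured on both arrays. In the bright range the shares were 92.3% of 26 amino acid genes and 73.8% of all genes. Below 0 lay 20 of the 35 amino acid genes, as did 8489 of the 16310 genes measured on both arrays, and in the bright range 15 of 26, as did 4834 of 8388. The median of the 26 was -0.046 and that of all bright genes was -0.040. The SD of the differences was 0.20 over the 26 amino acid genes and 0.366 over all bright genes.

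**Figure D1:**
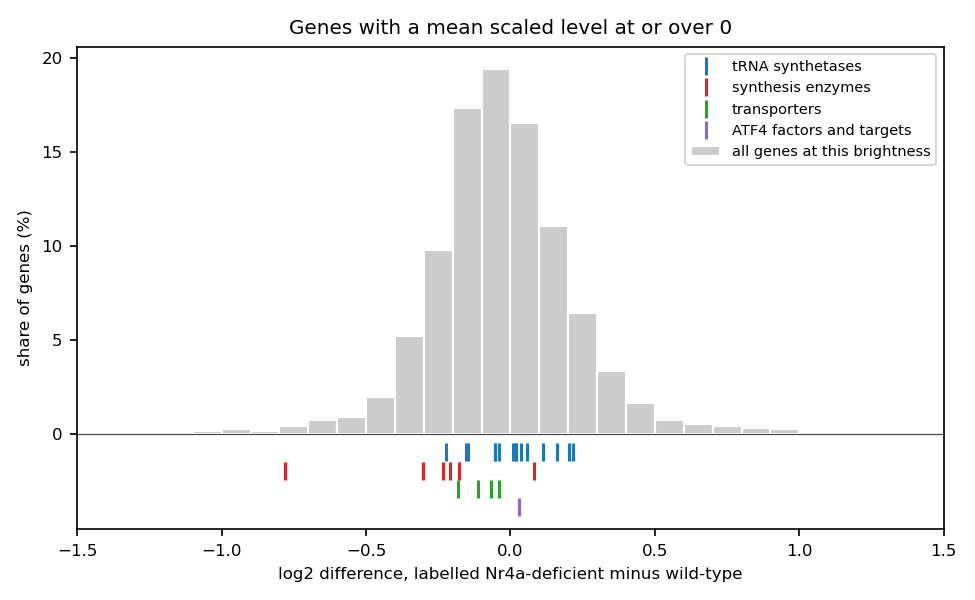
Histogram of the log2 difference (x axis, labelled Nr4a-deficient minus wild-type, 1 array each) of the 8388 genes with a mean at or over the 75th percentile (y axis, percent of these genes), with ticks under the axis for the 26 amino acid genes in that range, coloured by group; 98 genes lie outside the axis. The ticks sit in the central part of the histogram apart from Asns at -0.78.

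**Figure D2:**
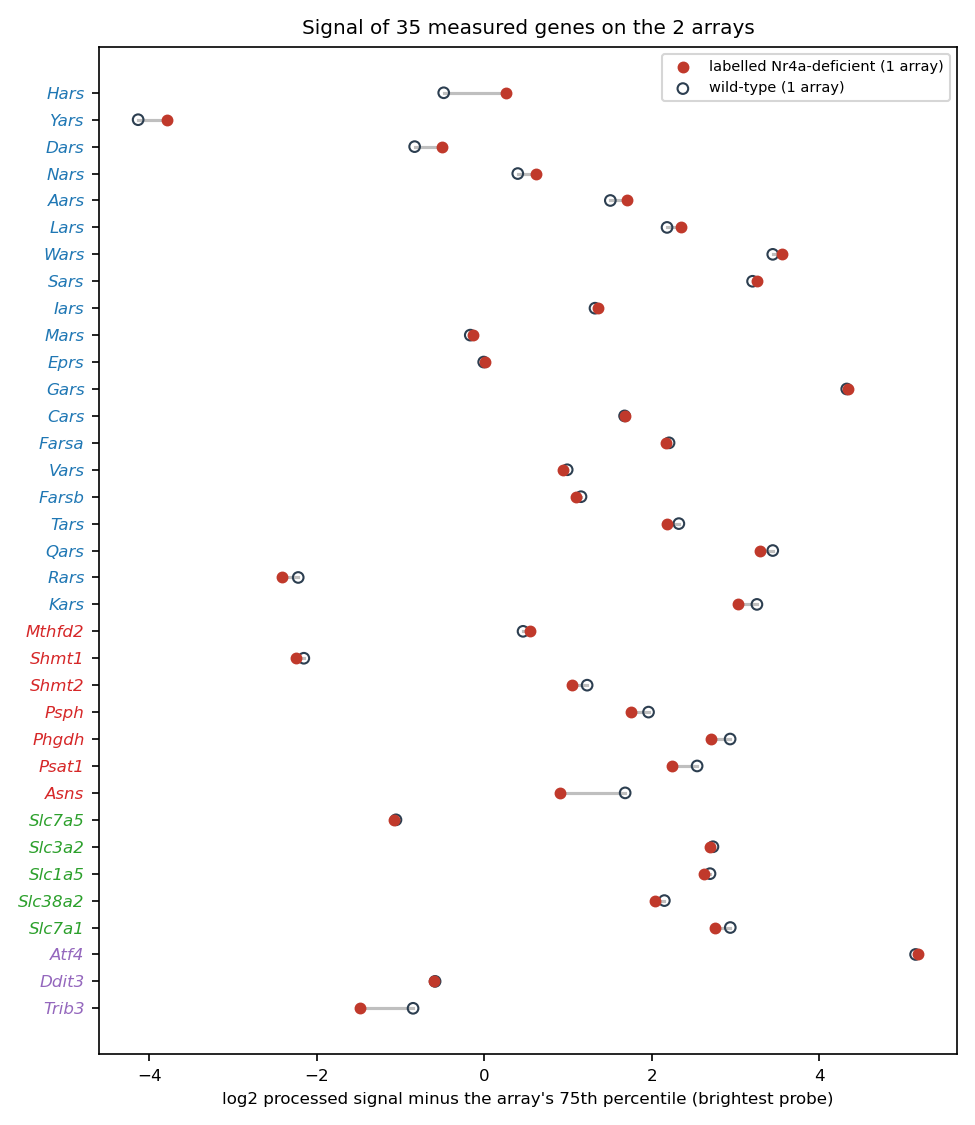
Scaled log2 signal (x axis, log2 processed signal minus the 75th percentile of the array) of the brightest probe of each of 35 genes (rows) in the library labelled Nr4a-deficient (filled) and the wild-type library (open), 1 array each, so there is no error bar. Label colours mark synthetases (blue), synthesis enzymes (red), transporters (green) and ATF4 factors and targets (purple); levels of different genes come from different probes and cannot be compared, and the gap within a row is wide for Hars, Asns and Trib3.

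Of the 35 measured genes, Asns, Hars and Trib3 lay more than 0.5 from 0. Asns encodes asparagine synthetase, which makes asparagine from aspartate and glutamine. Its relative signal was 1.87 in the library labelled Nr4a-deficient, against 3.21 in wild-type, a difference of -0.78 or 1.72-fold lower. Of all genes measured on both arrays, 4.31% lay at or below that value. Those genes include dim ones and spread more, with an SD of 0.541, against 0.366 for all bright genes. Trib3 encodes a pseudokinase that is induced by ATF4 and dampens its activity. Its relative signal was 0.358 in the library labelled Nr4a-deficient, against 0.554 in wild-type, 1.55-fold lower (-0.63), with 5.74% of genes at or below it. Hars, the histidyl-tRNA synthetase, went the other way, with 1.20 in the library labelled Nr4a-deficient, against 0.715 in wild-type, 1.68-fold higher (0.74). Of all genes, 4.10% lay at or above that value. In units of the spot SD at their brightness these differences were -10.6 for Asns, -5.24 for Trib3 and 6.16 for Hars, but each of these genes rests on 1 probe. Their probes are placed by the array design (mm9) at chr6:7625171-7625228 for Asns, chr2:152163161-152163220 for Trib3 and chr18:36926985-36927794 for Hars. With spike-ins as the scale, Asns lay at -1.15 and Trib3 at -1.005, both at least 2-fold lower, as were 8.14% of all genes on that scale, and Hars lay at 0.372.

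**Figure D3:**
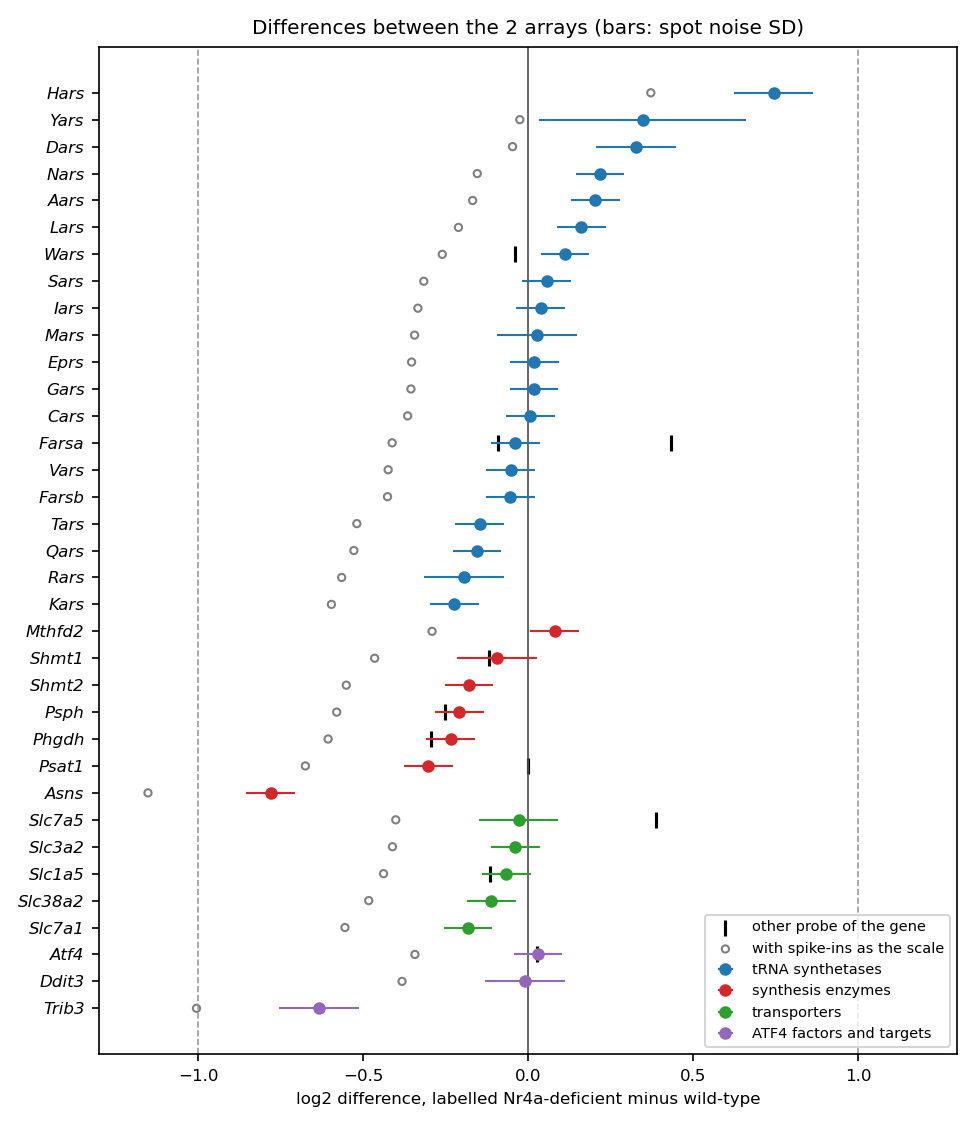
Log2 difference (x axis, labelled Nr4a-deficient minus wild-type) for the 35 measured genes (rows), by group, from the brightest probe; bars are 1 SD of spot noise at that brightness, ticks are other probes above background on both arrays, small open circles use spike-ins as the scale and dashed lines mark 2-fold. All filled points lie between -0.78 (Asns) and 0.74 (Hars), and 1 of 35 genes stays above 0 on the spike-in scale.

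The 20 tRNA synthetase genes were all measured on both arrays, 13 above and 7 below 0, with a median of 0.024 and a range from -0.22 to 0.74. With spike-ins as the scale 1 of the 20, Hars, lay above 0 and the median was -0.35, so the sign of the other synthetases above 0 depended on the scale. Their summed relative signal was 92.3 in the library labelled Nr4a-deficient, against 92.2 in wild-type. In 17 of the 20 the difference was under 0.25. Gars, the glycyl-tRNA synthetase that serves both cytosol and mitochondria, had a relative signal of 20.3 in the library labelled Nr4a-deficient, against 20.1 in wild-type (0.018). Kars, the lysyl enzyme that also serves both compartments, was the lowest of the group with 8.17 in the library labelled Nr4a-deficient, against 9.54 in wild-type (-0.22). Eprs, which joins the glutamyl and prolyl enzymes in 1 protein, had 1.01 in the library labelled Nr4a-deficient, against 0.994 in wild-type (0.019), and Cars, the cysteinyl enzyme, had 3.21 and 3.19 in the same order (0.007).

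Besides Hars, the highest differences among the synthetases were those of Yars (tyrosyl), Dars (aspartyl), Nars (asparaginyl) and Aars (alanyl). Yars had 0.073 in the library labelled Nr4a-deficient, against 0.057 in wild-type (0.35), which is 1.10 times the spot SD of such a dim probe. Dars had 0.704 in the library labelled Nr4a-deficient, against 0.562 in wild-type (0.33), and Nars had 1.53 and 1.32 in the same order (0.22). Aars had 3.27 in the library labelled Nr4a-deficient, against 2.84 in wild-type (0.20). A dim second Aars probe was above background in wild-type cells only, with an intensity of 39.1 in the library labelled Nr4a-deficient, against 88.1 in wild-type, and the mean of both probes turned Aars to -0.38. Lars (leucyl) lay at 0.16 and Wars (tryptophanyl), an enzyme also induced by interferon, at 0.11, with a second Wars probe at -0.04. Below 0 with Kars were Rars (arginyl, -0.19), Qars (glutaminyl, -0.16), Tars (threonyl, -0.15), Farsb (-0.054), Vars (valyl, -0.052) and Farsa (-0.039). Sars (seryl, 0.056), Iars (isoleucyl, 0.038) and Mars (methionyl, 0.028) lay within the spot SD of 0. Farsa and Farsb encode the subunits of the phenylalanyl enzyme and differed from each other by less than the spot SD. The 2 dimmer Farsa probes lay at -0.091 and 0.43, so its sign differed between probes.

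Neither assembly nor enzyme class separated the synthetases. The 8 synthetases of the multisynthetase complex, a cytosolic particle that holds several of these enzymes together, had a median of 0.024 (5 above and 3 below 0), and the 12 free ones had a median of 0.037 (8 above and 4 below). The 9 enzymes with a class I fold had a median of 0.028 and the 10 of class II 0.037, leaving out Eprs, which holds both. The genes Hars and Hars2 are neighbours that overlap in RefSeq's annotation (GRCm38.p6), on chromosome 18. Hars2, the mitochondrial histidyl enzyme, lay at 0.016.

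Of 17 listed mitochondrial synthetases, 16 were detected, 7 above and 9 below 0, with a median of -0.054. None was 2-fold different, but with spike-ins as the scale Mars2 was (-1.08). In 14 pairs of a cytosolic and a mitochondrial enzyme for the same amino acid, the sign was the same in 9 and opposite in 5 (Cars, Iars, Lars, Mars and Yars). Aars2 (0.39) was the highest mitochondrial enzyme, beside 0.20 for Aars. Mars2 was the lowest at -0.70, with an intensity of 168 in the library labelled Nr4a-deficient, against 318 in wild-type, beside 0.028 for Mars. Both examples were picked with their values in view.

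**Figure D4:**
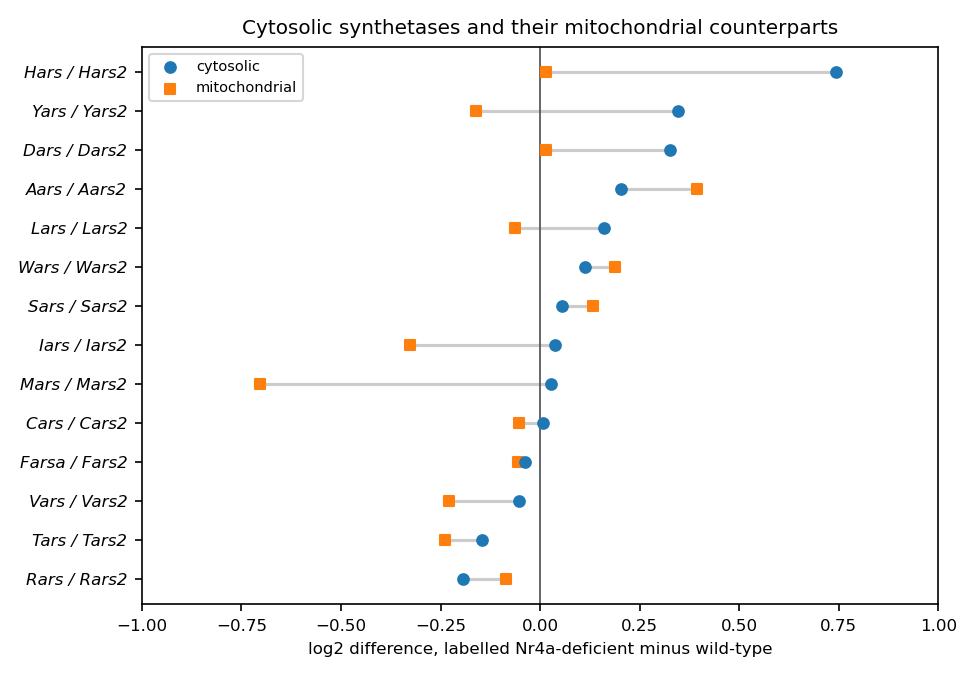
Log2 difference (x axis, labelled Nr4a-deficient minus wild-type, 1 array each) of the cytosolic enzyme (circles) and its mitochondrial counterpart (squares) for 14 pairs (rows), joined by a line. The widest gaps are those of Hars (0.74) with Hars2 (0.016) and of Mars (0.028) with Mars2 (-0.70).

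A list of genes for scaffolds of the multisynthetase complex and helpers of tRNA charging had a lower median than the 20 synthetases. That list also holds the synthetase-like gene Tarsl2 (-0.21), and the difference was not tested. Of 10 listed genes all were detected, 8 below and 2 above 0, with a median of -0.23, against 0.024 for the synthetases and 0.000 for all genes. Of all genes measured on both arrays, 8489 of 16310 lay below 0. The scaffolds Aimp1 and Aimp2 lay at -0.32 and -0.29, and Eef1e1, another scaffold, at -0.25. Dtd1, which removes D-amino acids from tRNA, lay at -0.32. Ppa1, the pyrophosphatase that removes a product of charging, lay at -0.39. Qrsl1 (0.073) and Mtfmt (0.055) were the 2 genes above 0. None of the 10 reached 2-fold, and the genes named here were picked with their values in view.

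Of the 7 synthesis enzymes 6 lay below 0, with a median of -0.21, against -0.040 for all bright genes, and a summed relative signal of 20.2 in the library labelled Nr4a-deficient, against 24.5 in wild-type. Asns was the lowest. The enzymes of serine synthesis from a glycolytic intermediate were all lower. Phgdh, the first of them, had a relative signal of 6.498 in the library labelled Nr4a-deficient, against 7.64 in wild-type (-0.23). Psat1, the transaminase of the second step, had 4.72 in the library labelled Nr4a-deficient, against 5.82 in wild-type (-0.30). Psph, the phosphatase of the last step, had 3.37 in the library labelled Nr4a-deficient, against 3.89 in wild-type (-0.21). In units of the spot SD these differences were -3.18 for Phgdh, -4.11 for Psat1 and -2.82 for Psph. Of all bright genes, 49.1% lay beyond 2 times the spot SD, a lower cut than the size of any of these values. Of all genes measured on both arrays, dim ones included, 19.97% lay at or below Phgdh. The shares were 14.76% for Psat1 and 22.37% for Psph. A second probe lay at -0.295 for Phgdh and at -0.25 for Psph. The second, dimmer Psat1 probe showed no difference (-0.001), so the lower value of Psat1 rests on 1 of its 2 probes.

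Serine is next split by hydroxymethyltransferases into glycine and a one-carbon unit. Shmt2, the mitochondrial form, had 2.07 in the library labelled Nr4a-deficient, against 2.34 in wild-type (-0.18). Shmt1, the cytosolic form, had 0.211 in the library labelled Nr4a-deficient, against 0.224 in wild-type (-0.093, under the spot SD). Mthfd2, the mitochondrial folate dehydrogenase that carries the one-carbon unit onward, was the 1 gene of the group above 0, with 1.46 in the library labelled Nr4a-deficient, against 1.38 in wild-type (0.081). In the same libraries the proliferation genes had a median of -0.29; their part in the lower synthesis enzymes was not tested.

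The transporters were close to equal on the main scale. Of 6, 5 were measured and all 5 lay below 0, between -0.18 and -0.029. Of all genes measured on both arrays, 8489 of 16310 lay below 0. With the 75th percentile taken over probes above background on both arrays, Slc7a5 (0.02) and Slc3a2 (0.009) lay above 0. The other measured transporters stayed below 0 there. The summed relative signal on the main scale was 24.0 in the library labelled Nr4a-deficient, against 25.7 in wild-type. Slc7a1, which imports arginine and lysine, had 6.75 in the library labelled Nr4a-deficient, against 7.65 in wild-type (-0.18). It was the 1 transporter beyond 2 times the spot SD, as were 49.1% of all bright genes. Slc38a2, an importer of small neutral amino acids, had 4.11 in the library labelled Nr4a-deficient, against 4.44 in wild-type (-0.11). Slc1a5, a glutamine and neutral amino acid exchanger, lay at -0.066. Slc3a2 is the heavy chain that brings several light chains to the cell surface, and it had 6.45 in the library labelled Nr4a-deficient, against 6.63 in wild-type (-0.039). Its light chain Slc7a5, which imports leucine and other large neutral amino acids, had 0.472 in the library labelled Nr4a-deficient, against 0.481 in wild-type (-0.029), with a second probe at 0.39. Slc7a11, the cystine importer, stayed near background on both arrays and has no fold, with intensities of 10.3 in the library labelled Nr4a-deficient, against 14.9 in wild-type.

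Atf4 itself was nearly equal on the main scale. Its relative signal was 36.2 in the library labelled Nr4a-deficient, against 35.4 in wild-type (0.030), and both of its probes gave 0.03. ATF4 is controlled mainly through translation, which an array does not measure. Ddit3, the stress-induced factor CHOP, had 0.661 in the library labelled Nr4a-deficient, against 0.665 in wild-type (-0.010). Ddit3 overlaps the neighbouring Mars1 (Mars) on chromosome 10 in RefSeq's annotation, and Mars lay at 0.028. Chac1, a glutathione-degrading enzyme strongly induced by ATF4, also stayed near background on both arrays, with intensities of 26.5 in the library labelled Nr4a-deficient, against 28.3 in wild-type. Trib3, described above, was the 1 gene of this group beyond the spot SD.

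ATF4 binds with C/EBP partners to the amino acid response element, with the letters TGATGNAA, which was searched on both strands in RefSeq's promoters (GRCm38.p6, 250 bases before to 50 after each start). Of the 37 genes, 28 had a promoter there, and 9 of these (32.1%) held the letters, against 3.97% of 32851 promoters. For each motif, a gene was counted if any of its promoters held the letters, while the share of all promoters counts each promoter singly. The genes were also listed in part as ATF4 genes, so the higher share is no finding of these data. The 9 genes were Aars, Gars, Iars, Tars, Yars, Asns, Slc7a11, Trib3 and Chac1. The windows below show the element or its reverse complement in capitals for some of these charging, import and feedback genes, each on the strand of its gene, because ATF4 is known to act through this element.
Gars, 30 bases before the start: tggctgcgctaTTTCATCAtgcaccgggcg
Tars, 15 bases before the start: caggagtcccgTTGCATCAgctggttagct
Iars, after the start: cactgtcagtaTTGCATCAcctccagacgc
Slc7a11, 66 bases before the start: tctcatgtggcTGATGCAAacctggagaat
Chac1, 193 bases before the start: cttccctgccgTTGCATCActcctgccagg
Trib3, after the start: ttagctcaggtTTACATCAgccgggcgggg

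The windows lie at chr6:55037960-55037989 (plus strand) for Gars, chr15:11399655-11399684 (minus) for Tars and chr13:49682126-49682155 (plus) for Iars. Those of Slc7a11, Chac1 and Trib3 lie at chr3:50443661-50443690 (minus), chr2:119351038-119351067 (plus) and chr2:152344028-152344057 (minus). Because Asns differed most, its 250 bases upstream of the start are shown in full, chr6:7693210-7693459 on the minus strand, with the element in capitals 23 bases before the start.
Asns: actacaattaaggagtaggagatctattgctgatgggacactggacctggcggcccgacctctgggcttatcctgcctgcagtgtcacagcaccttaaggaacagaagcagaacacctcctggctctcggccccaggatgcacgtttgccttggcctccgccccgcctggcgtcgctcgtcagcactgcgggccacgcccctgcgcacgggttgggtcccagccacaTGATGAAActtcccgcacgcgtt

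On the main scale, holding the element did not go with one direction. The 7 measured genes that held it had a median of 0.018, 4 above and 3 below 0, between -0.78 (Asns) and 0.35 (Yars). The 19 measured genes with a promoter but without it had a median of -0.054, 6 above and 13 below 0. With spike-ins as the scale, all 7 genes with the element lay below 0, between -1.15 (Asns) and -0.025 (Yars). So did 34 of all 35 measured amino acid genes on that scale. The letters TGACGTCA, a cyclic AMP response element, were in none of the 28 promoters and in 1.79% of all promoters. The letters CACGTG, an E-box of the kind bound by Myc, were in 4 (Aars, Farsb, Iars and Tars; 14.3%) and in 7.15% of all promoters. A match describes letters and not binding.

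Upstream of ATF4, the 15 listed kinases, phosphatase subunits and initiation factors were all detected, 6 above and 9 below 0, with a median of -0.052 and none 2-fold different. Eif2ak4, the kinase GCN2 that senses uncharged tRNA, lay at -0.17, and Eif2ak3, the kinase PERK of the endoplasmic reticulum, at 0.013. Of 21 other ATF4 partners and targets, 16 were detected, 9 above and 7 below 0, with a median of 0.079. Past 2-fold were 2 upward and 1 downward, as were 4.71% and 4.93% of all genes with a measured value or a bound. With spike-ins as the scale the median was -0.29, with 1 past 2-fold upward and 3 downward (Gdf15, Slc6a9 at -1.14 and Jdp2 at -1.01). Nupr1, a stress-induced chromatin protein, was 2.67-fold higher, with an intensity of 274 in the library labelled Nr4a-deficient, against 120 in wild-type. Gpt2, the mitochondrial alanine transaminase, was 2.03-fold higher with 496 in the library labelled Nr4a-deficient, against 284 in wild-type, and fell short of 2-fold with spike-ins as the scale (0.65). Gdf15, a secreted stress cytokine, was 4.96-fold lower with 194 in the library labelled Nr4a-deficient, against 1120 in wild-type.

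The other unfolded protein response genes lay mostly above 0, 15 of 16, with a median of 0.20. Of all genes measured on both arrays, 7821 of 16310 lay above 0. Several of the 15 were close to 0, with Sdf2l1, Edem1, Pdia4 and Manf between 0.001 and 0.018. With spike-ins as the scale, 4 of the 16 lay above 0, as did 1817 of the 16310, and the median of the 16 was -0.17. Atf6, a sensor of the endoplasmic reticulum, was 2.29-fold higher on the main scale (1.20) and lay at 0.82 with spike-ins. Among 18 other amino acid transporters 14 were detected, 8 above and 6 below 0, with a median of 0.043. None was 2-fold higher and 3 were at least 2-fold lower. Of all genes with a measured value or a bound, 4.71% were at least 2-fold higher and 4.93% lower. Slc7a8, a carrier of neutral amino acids that pairs with Slc3a2, was 3.54-fold lower with an intensity of 114 in the library labelled Nr4a-deficient, against 468 in wild-type. Slc7a10, which carries small neutral amino acids, was 2.998-fold lower with 90.6 in the library labelled Nr4a-deficient, against 316 in wild-type. Slc7a7, a carrier of cationic amino acids known from macrophages and chosen here after its value was seen, was 2.48-fold lower with 2105 in the library labelled Nr4a-deficient, against 6078 in wild-type. The 9 macrophage and dendritic cell markers went both ways, with a median of -0.27 and a summed relative signal of 47.3 in the library labelled Nr4a-deficient, against 59.6 in wild-type. The macrophage genes C1qa (-1.55), C1qb (-1.45) and Adgre1 (-1.29) were at least 2-fold lower, and Itgax (2.65), Clec9a (2.50) and Lyz2 (1.03) at least 2-fold higher. Their part in these transporters was not tested.

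**Figure D5:**
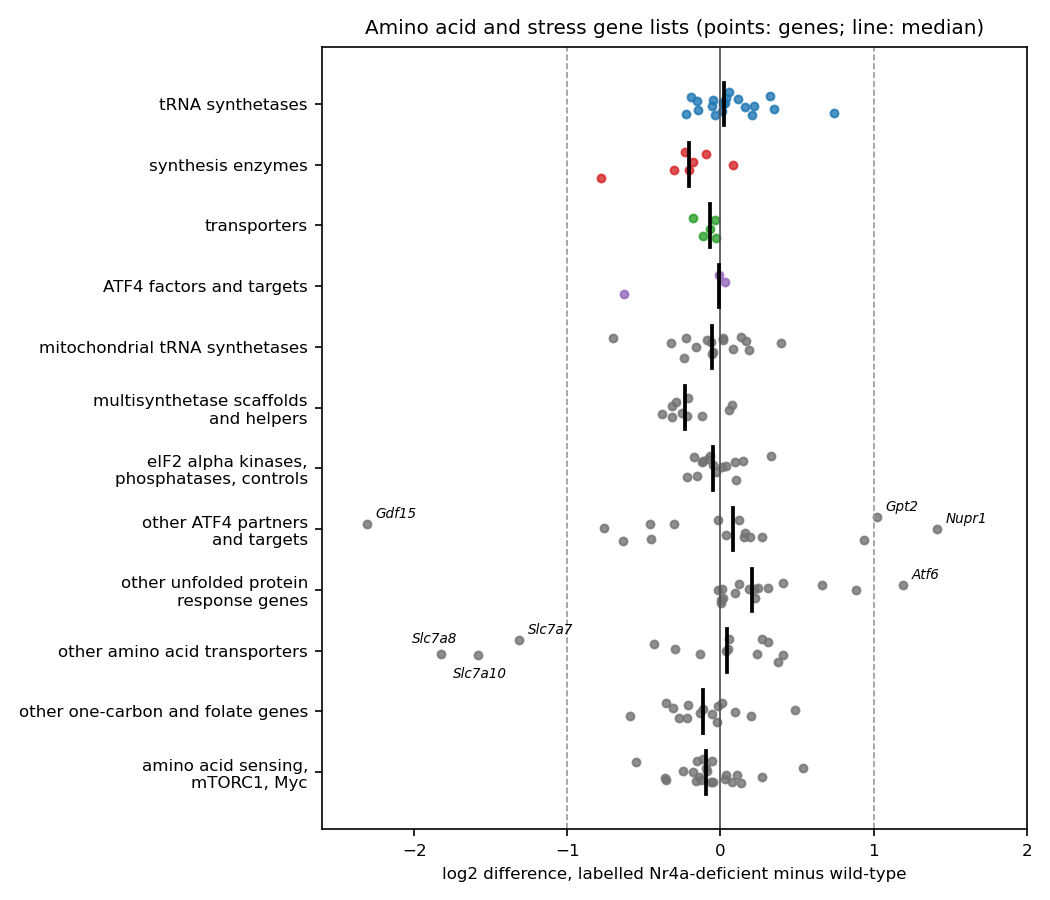
Log2 difference (x axis, labelled Nr4a-deficient minus wild-type, 1 array each) of each detected gene (points, with vertical scatter for legibility) in the amino acid groups (coloured) and related lists (grey), by list (rows); black lines are list medians, dashed lines mark 2-fold, and genes above background on 1 array are drawn at their bound. Every coloured point lies within the dashed lines, and the 7 named genes of related lists lie outside.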

How the data were processed

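Total RNA of sorted Treg cells was labelled with Cy3 and hybridised to single-colour Agilent mouse arrays, 1 per genotype. Per the file headers, the authors' deposited scanner tables came out of Agilent Feature Extraction 10.7.3.1 and hold background-subtracted processed intensity per spot; the deposited value table lay within 1% of these intensities for 99.6% of 39429 probes on each array. Intensities were converted to log2 from the deposited intensity after outlier spots were left out and repeated spots averaged, and the 75th percentile of the array was subtracted. A gene took its brightest probe well above background (over 50% of spots) on at least 1 array. A gene above background on 1 array was given as a bound against the lowest signal above background on the other. Probes well above background numbered 23123 in the library labelled Nr4a-deficient, against 21876 in wild-type.

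With 1 array per group no test was possible, and the number of arrays limits the precision. Genes past 2-fold were counted. The pipeline was tested on simulated data. Every member was named; other lists named up to 2 genes per end past 2-fold, and other names were chosen after their values were seen. Members and lists were chosen with earlier results of these data known. Quantile, cyclic loess and normexp settings used limma 3.58.1 in R 4.3.3; other steps used Python 3.11.15 with pandas 2.3.3. Promoters were taken from RefSeq (GRCm38.p6). Some promoter windows are not reported here.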

Additional observations from a re-analysis of the deposited data

How the results depend on the processing

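Of the 35 measured amino acid genes, 17 kept their sign in all 12 alternatives, 16 below 0 and Hars above 0 (0.37 to 0.79). Asns ranged over -1.15 to -0.71 and Trib3 over -1.005 to -0.57. With the 75th percentile taken over probes above background on both arrays, 19 of the 35 genes lay above 0. Their median was then 0.009, against 0.047 for all genes. With spike-ins as the scale the median of all genes moved to -0.37. With the median of all gene probes as the scale, the group medians were -0.066 for synthetases, -0.297 for synthesis enzymes, -0.156 for transporters and -0.10 for ATF4 factors. With spike-ins they were -0.349, -0.58, -0.438 and -0.382 in the same order, and 2 of the genes (Asns and Trib3) were at least 2-fold lower. Of all genes, 561 were at least 2-fold higher and 1510 lower with spike-ins, 435 higher and 497 lower with genes above background on both arrays, and 2067 higher and 1784 lower with no filter. Normexp with quantile normalization gave 567 higher, and the measured value in place of a bound gave 1434 higher. The cause of these shifts beyond the scale or filter itself was not tested. No paired analysis was possible because each group had 1 array, and for the same reason no array could be left out. Signal over background limits Slc7a11 and Chac1, for which no fold is given, and the spread between animals is unknown.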

Other observations

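Folate and one-carbon genes outside the list lay mostly below 0. Of 17 listed genes 15 were detected, 4 above and 11 below 0, with a median of -0.12 and none 2-fold different. Of all genes measured on both arrays, 8489 of 16310 lay below 0, with a median of -0.013. Of all bright genes 4834 of 8388 did, with a median of -0.040. Mtrr, which reactivates methionine synthase, lay lowest at -0.59, and Tyms, the thymidylate synthase, highest at 0.49. Among 23 genes of amino acid sensing, mTORC1 and Myc, 22 were detected, 7 above and 15 below 0, with a median of -0.093. Whether these lists differ from all genes was not tested. Myc, a transcription factor that drives growth genes, lay at -0.55, and Castor1, an arginine sensor that restrains mTORC1, at 0.54. The genes named here were chosen after their values were seen.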
